A study of Homo sapiens with 18 samples.

Results

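The androgen response of LNCaP cells under control siRNA was described from 6 of the 18 arrays of the series. These arrays form 3 pairs of vehicle and R1881, matched by the replicate number in the sample titles. LNCaP is an established human prostate cancer line that grows in response to androgen, and R1881 is a synthetic androgen. All 6 arrays carried cells transfected with a control siRNA (siControl) 48 h before hormone and held for 3 days in medium whose 2.5% serum had been treated with charcoal to remove steroids. Vehicle was ethanol. R1881 was used at 10 nM in replicates 1 and 3 and at 1 nM in replicate 2. The labels mark the control siRNA of replicate 2 as #2, and its arrays are named with a set of their own, so the dose, the set and the siRNA mark cannot be told apart. The other 12 arrays hold LNCaP cells with siRNA against CTBP1-AS or PSF and VCaP cells, a second androgen-responsive prostate cancer line, and share no array with these pairs. All VCaP pairs used 1 nM R1881. Each LNCaP knockdown pair used the dose of the siControl pair of its set. By the titles, the siCTBP1-AS in the set of replicate 2 and in VCaP is #2, unlike that in the set of replicate 1. The sources used here do not give the time with hormone. Nothing in the labels names a separate culture for each array. With the pairs as blocks, the p-values of the R1881 response measure the spread of the 3 pair differences. That spread may be technical, and it also holds any effect of set, dose or siRNA mark.

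Androgens act through the androgen receptor, a nuclear receptor that on binding its ligand enters the nucleus and binds DNA at androgen response elements. These elements are built from 6-base motifs related to AGAACA, often as an inverted repeat spaced by 3 bases. In prostate cells the receptor drives genes of secretion, lipid synthesis and growth and represses others, and KLK3, which encodes prostate-specific antigen, is the target most widely used to read its activity. The receptor gene itself was not analysed here.

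The sequences directly before the transcription starts of KLK3 and its neighbour KLK2 are shown because both genes rose in all pairs and both gave their largest difference in the 1 nM pair. They are the 250 bases before each start in RefSeq (GRCh38.p14), plus strand, at chr19:50854665-50854914 for KLK3 and chr19:50873189-50873438 for KLK2. Capitals mark AGAACA in KLK3 and the 6 bases of KLK2 that stand at the same place before a shared run of 9 bases. The 2 motifs differ by A1G, counted from 1 at the first capital, with the KLK3 base first. The motif starts 170 bases before the start in KLK3 and 176 in KLK2.
KLK3: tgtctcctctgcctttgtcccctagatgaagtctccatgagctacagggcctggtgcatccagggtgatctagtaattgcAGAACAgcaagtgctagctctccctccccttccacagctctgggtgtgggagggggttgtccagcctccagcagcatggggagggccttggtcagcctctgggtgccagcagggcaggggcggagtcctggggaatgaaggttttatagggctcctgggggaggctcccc
KLK2: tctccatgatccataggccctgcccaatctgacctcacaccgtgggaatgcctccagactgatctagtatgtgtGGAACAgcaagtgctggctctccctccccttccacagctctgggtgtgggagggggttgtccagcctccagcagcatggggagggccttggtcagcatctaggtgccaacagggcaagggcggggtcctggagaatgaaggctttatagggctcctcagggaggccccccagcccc
SI, which fell, and SLC38A4, which rose, are shown as members on other chromosomes that hold the motif as its reverse complement, in capitals. The stretch of SI lies at chr3:165078687-165078746 and that of SLC38A4 at chr12:46826051-46826110, both on the minus strand and printed in the direction of the gene.
SI: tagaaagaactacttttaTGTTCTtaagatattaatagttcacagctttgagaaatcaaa
SLC38A4: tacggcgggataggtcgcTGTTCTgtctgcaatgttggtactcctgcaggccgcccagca
Of the genes called below, RefSeq promoters were matched for 333 of 401 that rose and 275 of 333 that fell. AGAACA on either strand lay in the 250 bases of 6.91% of the first and 7.64% of the second, beside 7.4% of the 10875 tested genes with a promoter. ACANNNTGT, the core of the inverted repeat, which reads the same on both strands and may overlap AGAACA, lay in 3% and 3.27%, beside 2.42%. Both shares were near those of all tested genes.

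Values are log2 signals per transcript cluster as the authors deposited them, and 13812 genes were tested after the lowest 25% by mean signal were left out. A difference is R1881 minus vehicle within a pair on the log2 scale, and a gene was called where limma with the replicate number as a block gave a Benjamini-Hochberg adjusted p below 0.05. Correlations between the 6 arrays over genes, which are no replicates, ran from 0.917 to 0.975, and no 2 arrays were identical. The arrays of replicate 2 had median signals of 5.73 and 5.74, below the 6.69 to 6.80 of the other 4, so levels were read within a pair. Of 13 tested markers of luminal prostate epithelium, KRT8 lay at 11.34 to 12.12 in vehicle, KRT18 at 11.16 to 11.63 and FOXA1 at 11.60 to 12.28, whereas KRT19 was 6.62, 4.97 and 6.48, below the median of each array. Of the markers of basal cells, fibroblasts, leukocytes and endothelium, 4, 4, 1 and 1 passed the filter, and 0 were called. In vehicle the basal KRT14 was 6.99, 4.82 and 6.70 and the fibroblast COL3A1 6.57, 5.29 and 6.31, near KRT19. The leukocyte CD14, at 5.90, 4.21 and 5.52, and the endothelial VWF, at 5.45, 4.30 and 5.91, lay lower. These are bulk samples of a single cell line, so the marker signals are not read as numbers of cells of a type.

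R1881 raised 401 genes (2.9% of those tested) and lowered 333 (2.41%), and each of these genes moved the same way in all 3 pairs. Without any test, 2509 genes (18.2%) were higher and 3315 (24%) lower in all pairs. Differences passed 0.5 in every pair for 305 genes upward (2.21%) and 210 downward (1.52%), and passed 1 for 115 upward (0.833%) and 42 downward (0.304%). All 115 and 42 were called. Of the called genes, 201 rose and 109 fell by a mean of more than 1. All R1881 arrays lay above all vehicle arrays for 277 genes (2.01%), of which 219 were called higher, and below them for 359 (2.6%), of which 166 were called lower. The counts rest on the pairing, since without the block limma called 31 genes higher and 4 lower. They also moved with single pairs. Without replicate 1 limma called 633 genes higher (4.58%) and 633 lower (4.58%), without replicate 2 143 and 56, and without replicate 3 230 and 164.

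STEAP4, which encodes a metalloreductase of the cell membrane, had the largest measured increase. Its signal was 4.10 in vehicle and 10.22 in R1881 in replicate 1, 3.25 and 10.72 in replicate 2, and 4.09 and 11.15 in replicate 3. The groups did not overlap, and the mean difference was 6.88 (SE 0.24, limma adjusted p = 0.000332). All 3 vehicle signals lay below the 25th percentile of their array, so this is a difference of measured signals and no fold is given. TARP, transcribed within the T cell receptor gamma locus, rose by 4.74, with pairs at 5.21, 4.29 and 4.71. In the VCaP pairs its differences were 0.04, -0.42 and 0.45. SNAI2, a zinc finger repressor of epithelial genes, rose by 4.48, and its 3 pairs lay between 4.05 and 4.96. In VCaP it gave 1.77 to 2.06.

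HPGD, which breaks down prostaglandins, went from 3.94 to 7.36, from 4.58 to 9.84 and from 4.71 to 8.42 in replicates 1, 2 and 3. It thus rose by 4.13 (SE 0.33, limma adjusted p = 0.00209), most at 1 nM. INPP4B, a phosphatase that lowers PI3K signalling, rose by 3.18 and went from 5.07 to 8.89, from 6.33 to 9.35 and from 7.33 to 10.02. PGC, a pepsinogen that prostate cells secrete, rose by 3.15, and ST6GALNAC1, a sialyltransferase, rose by 3.05. PMEPA1, an inhibitor of TGF-beta signalling, and SLC45A3, which encodes the prostate protein prostein, each rose by 3.04 (SE 0.13). SLC45A3 was 8.97, 8.66 and 9.49 in vehicle and rose by 2.89, 3.33 and 2.89 in replicates 1, 2 and 3. ERRFI1, a feedback inhibitor of the EGF receptor, rose by 2.99 and the centromere gene CENPN by 2.98. OTULINL rose by 2.94 (SE 0.12), with pairs at 2.70, 3.01 and 3.10.

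The remaining large increases were less even between pairs. CCDC141 gave 2.86, 3.35 and 5.46, and CHRNA2, a nicotinic receptor subunit, gave 2.15, 3.73 and 4.20. UGT2B28, which conjugates androgens with glucuronic acid and has close relatives that probes may also read, gave 3.12, 1.78 and 4.88. SLC38A4, an amino acid transporter, gave 1.00, 3.45 and 5.06 (mean 3.17, SE 0.66, limma adjusted p = 0.0449). Its adjusted p was 0.26 without replicate 2 and 0.0758 without replicate 3, and that of CHRNA2 was 0.0546 without replicate 2. Of the 15 largest increases, CCDC141 also had all 3 vehicle signals below the 25th percentile of their arrays, and HPGD, SLC38A4, TARP and UGT2B28 had at least 1.

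**Figure D1:**
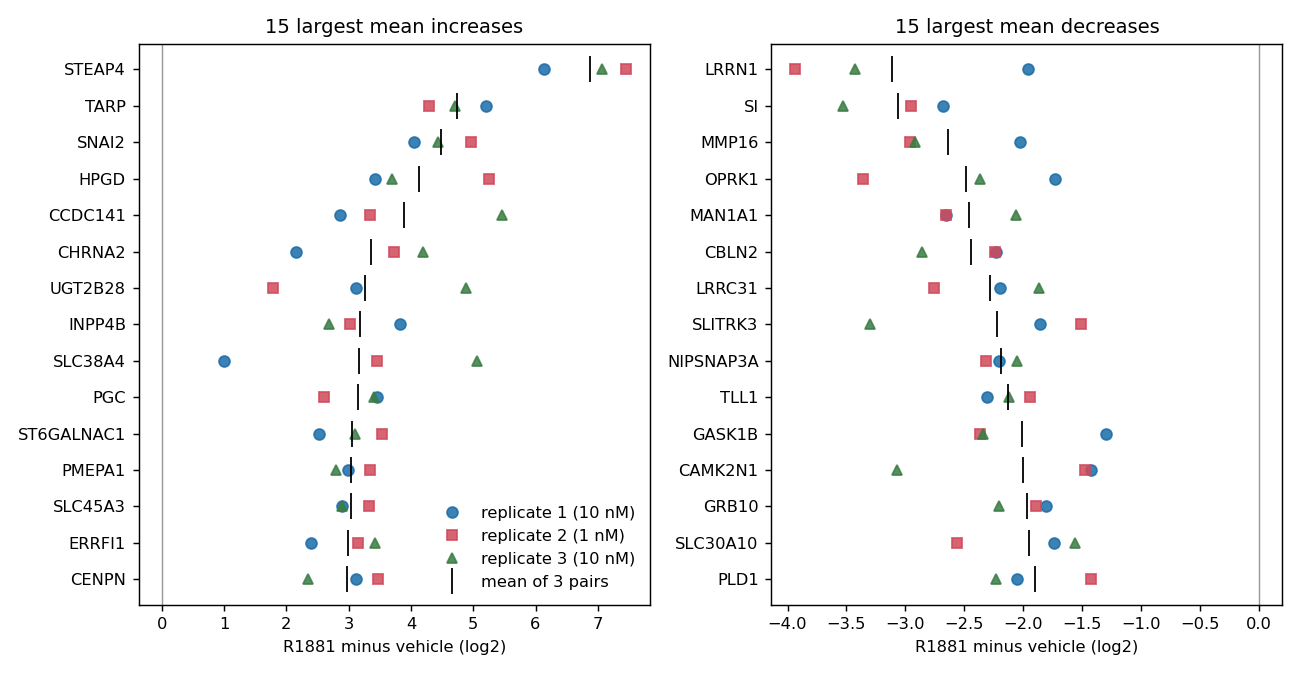
R1881 minus vehicle differences (log2, horizontal axis) of the 15 called genes with the largest mean increase (left) and decrease (right), with 1 point per pair and a bar at the mean of the 3 pairs. STEAP4 stands apart at 6.13 to 7.46, and SLC38A4 spreads from 1.00 to 5.06.

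LRRN1, a leucine-rich repeat membrane protein of neurons, had the largest decrease. It went from 10.06 to 8.10, from 8.89 to 4.96 and from 10.76 to 7.34 in replicates 1, 2 and 3, so the R1881 arrays all lay below the vehicle arrays (mean difference -3.11, SE 0.34, limma adjusted p = 0.00539). SI, the digestive enzyme sucrase-isomaltase, was 7.38, 8.01 and 7.74 in vehicle and 4.70, 5.06 and 4.21 in R1881 and fell by 3.06 (SE 0.17). MAN1A1, a Golgi mannosidase that trims N-glycans, was 9.37, 8.45 and 8.14 in vehicle and 6.70, 5.79 and 6.08 in R1881 and fell by 2.46 (SE 0.15). NIPSNAP3A fell by 2.19 (SE 0.11) with pairs at -2.21, -2.32 and -2.05. NIPSNAP3A thus had the smallest standard error of the 15 largest decreases, followed by TLL1, a secreted metalloprotease, which fell by 2.13 (SE 0.12), and GRB10, an adaptor that dampens insulin signalling, which fell by 1.97 (SE 0.12).

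The other large decreases included MMP16, a membrane-bound matrix metalloprotease, at -2.64, OPRK1, the kappa opioid receptor, at -2.49, and CBLN2, a synapse organiser, at -2.44. LRRC31 fell by 2.28, SLC30A10, a manganese exporter, by 1.95 and PLD1, a phospholipase, by 1.90. SLITRK3, another neuronal membrane protein, fell by 2.22, with pairs at -1.86, -1.51 and -3.30. GASK1B at -2.01 had an adjusted p of 0.0505 without replicate 2, and CAMK2N1, an inhibitor of CaM kinase II that was also called lower, had 0.0778. LRRC31 had all 3 R1881 signals below the 25th percentile of their arrays, and SI and SLC30A10 had at least 1.

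**Figure D2:**
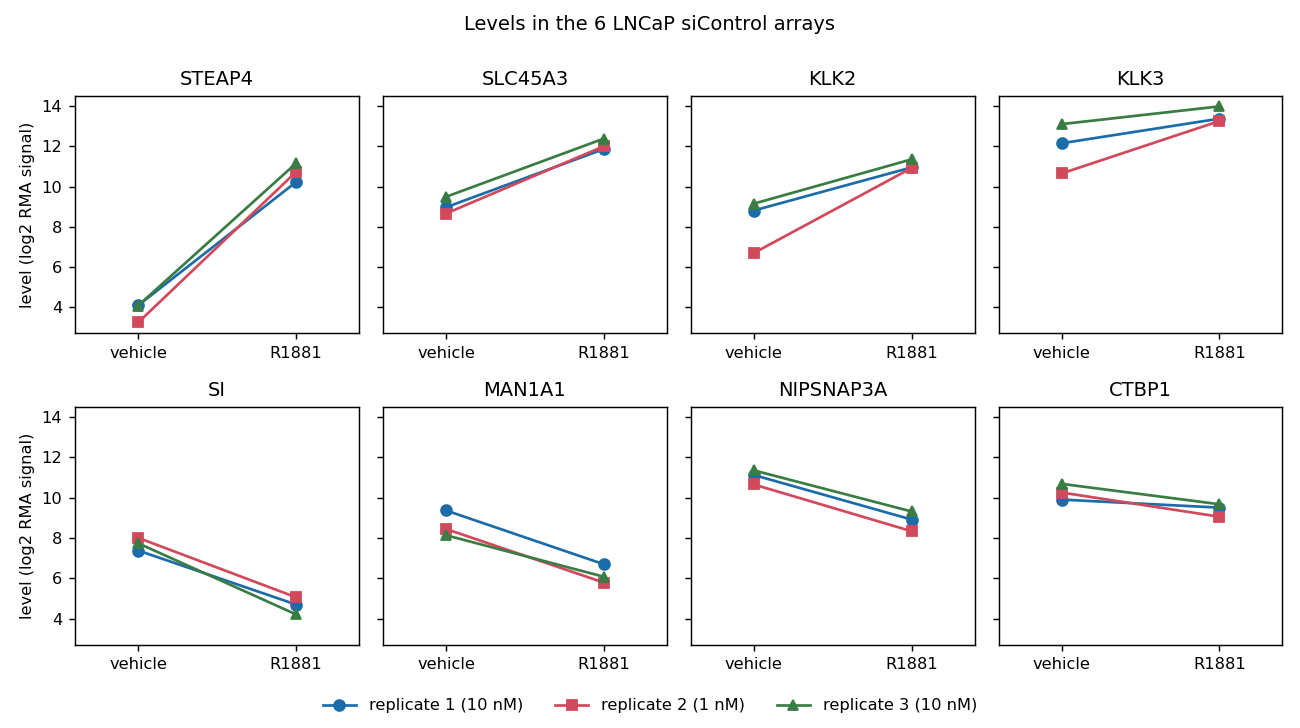
Level (log2 RMA signal, vertical axis) of 8 genes in vehicle and R1881, with 1 line per pair. STEAP4, SLC45A3, KLK2 and KLK3 ran upward and SI, MAN1A1, NIPSNAP3A and CTBP1 downward in every pair, and the vehicle array of replicate 2 was the lowest for KLK2 (6.70) and KLK3 (10.65).

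Of 38 tested genes known to be induced by androgen, 34 rose (89.5%) and 1 fell (2.63%), beside 2.9% and 2.41% of all tested genes. Their median difference was 2.21, beside -0.02 over all tested genes. The list was written with results of these arrays known and is no independent evidence of its direction. The list holds regulators of transcription. SPDEF, an ETS factor of luminal cells, rose by 2.13 (SE 0.11) with pairs at 2.17, 1.97 and 2.26, and ZBTB16 rose by 2.28. ELL2, an elongation factor of RNA polymerase II, rose by 2.64. ABCC4, a transporter that exports cyclic nucleotides and prostanoids, gave 1.92, 1.97 and 1.92, and CAMKK2, a kinase upstream of AMPK, gave 1.87, 1.73 and 1.29. TRIB1, a pseudokinase, fell by 1.03, and its adjusted p was 0.0689 without replicate 2. STEAP1, with a mean difference of 0.07, STEAP2, also with 0.07, and PTGER4, with pairs at 0.47, 3.42 and 1.67, were not called. Without replicate 2, 28 of the 38 genes were called higher, beside 143 of all 13812 tested genes.

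Of 16 tested genes known to be repressed, 10 fell (62.5%) and 2 rose (12.5%), beside 2.41% and 2.9% of all tested genes, with a median of -1.46. This list too was written with results known. Beside LRRN1, SI and OPRK1 the decreases included BCHE, butyrylcholinesterase, at -1.84, SERPINI1, neuroserpin, at -1.60 and PLA2G2A, a secreted phospholipase, at -1.53. DDC, the decarboxylase that makes dopamine and serotonin, was 8.06, 8.36 and 7.23 in vehicle and 6.72, 6.67 and 5.66 in R1881 and fell by 1.53. PRKCA, a protein kinase C, rose by 1.86, and DLX2, a homeobox factor, rose by 0.92, against the direction of the list's name. MME, with pairs at -0.19, -0.12 and -0.29, was not called.

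Among 16 tested secretory proteins of the prostate 8 rose (50%) and 1 fell (6.25%), beside 2.9% and 2.41% of all tested genes. KLK2, a kallikrein protease that activates KLK3, was 8.81, 6.70 and 9.15 in vehicle and 10.95, 10.92 and 11.35 in R1881, with no overlap (mean difference 2.86, SE 0.39, limma adjusted p = 0.0119). KLK3 was 12.15, 10.65 and 13.10 in vehicle and 13.37, 13.25 and 13.98 in R1881 (mean difference 1.57, SE 0.31, limma adjusted p = 0.0382). KLK4 gave 1.45, 2.15 and 0.57 and rose by 1.39. The 3 kallikreins lie side by side on chromosome 19 and are alike in sequence, so probes of 1 may read another. AZGP1, a secreted zinc-binding glycoprotein, rose evenly by 1.16, with pairs at 1.09, 1.08 and 1.30. ACP3, prostatic acid phosphatase, was the member that fell, from 9.24 to 7.34, from 11.68 to 10.61 and from 10.29 to 8.79. Without replicate 2, 4 of these genes were called higher, and without replicate 3, 5 were, beside 143 and 230 of all 13812 tested genes. KLK4 had an adjusted p of 0.151 without replicate 2.

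Genes of lipid synthesis were called in 1 direction. Of 19 tested genes of cholesterol synthesis 12 rose (63.2%) and 0 fell, beside 2.9% and 2.41% of all tested genes. The median of the 19 was 0.78, and 18 had an unadjusted p below 0.05, beside 2744 of all 13812 tested genes. HMGCS1, which starts the mevalonate pathway, was 8.78, 8.19 and 9.32 in vehicle and 10.51, 9.67 and 11.27 in R1881 and rose by 1.72 (SE 0.12). INSIG1, the sterol sensor that holds SREBP in the endoplasmic reticulum, rose by 1.81 and the isomerase IDI1 by 1.21. SCAP, the SREBP escort, gave 0.44, 1.68 and 1.25, and the later enzyme TM7SF2 had a mean difference of -0.43 with an adjusted p of 0.102. Of 18 genes of fatty acid synthesis 9 rose (50%) and 0 fell. The elongases ELOVL7 and ELOVL2 rose by 2.81 and 2.42, and ELOVL7 gave 1.95, 3.27 and 3.21. FASN, fatty acid synthase, was 10.61, 9.34 and 11.10 in vehicle and 12.56, 11.36 and 12.23 in R1881 and rose by 1.70, with an adjusted p of 0.0509 without replicate 2. ACACA, which makes malonyl-CoA, rose by 1.02. Without replicate 2, 4 genes of cholesterol synthesis and 4 of fatty acid synthesis were called higher, beside 143 of all 13812 tested genes.

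In the lists that follow, counts are read beside the 2.9% of all tested genes that rose and the 2.41% that fell. Counts without replicate 1, 2 or 3 are read beside 633, 143 and 230 genes higher and 633, 56 and 164 lower among all 13812. Of 11 tested polyamine genes 3 rose (27.3%) and 0 fell. ODC1, the rate-limiting enzyme of polyamine synthesis, rose by 1.56 with pairs at 1.65, 1.74 and 1.28. SMS, spermine synthase, rose by 1.87, and SAT1, which acetylates polyamines for export, rose by 1.16, although its adjusted p was 0.0596 without replicate 2. Of 17 genes of fatty acid oxidation and the peroxisome 5 rose (29.4%) and 0 fell, led by PEX10, a peroxisome assembly factor, at 1.55, and without replicate 2 the count was 2. Of 28 genes of hypoxia and glycolysis 7 rose (25%) and 0 fell. SLC2A3, a glucose transporter, rose by 2.21 and NDRG1 by 2.53, while the enzyme GAPDH gave 0.03, 0.03 and -0.05. The hypoxia and glycolysis count was 3 without replicate 2 and 4 without replicate 3. The medians of this list were 0.53, 0.22 and -0.01 in replicates 1, 2 and 3. In these replicates 1, 4 and 15 of the 28 genes were below 0, beside 53.1%, 48.6% and 56.6% of all tested genes.

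Signalling genes moved in both directions. In the PI3K and insulin list 4 of 22 rose (18.2%) and 4 fell (18.2%), beside 2.9% and 2.41% of all tested genes. IGF1R, the receptor of insulin-like growth factor, rose by 2.59 (SE 0.14) with pairs at 2.26, 2.91 and 2.60, MTOR rose by 1.38 and PIK3R1, a regulatory subunit of PI3K, fell by 1.12. SGK1, a kinase of this pathway, gave 1.67, 4.11 and 2.33. Without replicate 2 the list had 4 genes higher and 2 lower. JAG1, a NOTCH ligand, rose by 1.64 with pairs at 1.62, 1.44 and 1.86, and the WNT receptor FZD5 rose by 2.08. LEF1, a WNT effector, fell by 0.70 and had an adjusted p of 0.0864 without replicate 2 and 0.0629 without replicate 3. NR4A1, an early-response nuclear receptor, rose by 1.87, and DUSP4, a phosphatase of MAP kinases, by 1.66.

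Genes of neuronal adhesion and guidance included 5 of 17 that fell (29.4%, beside 2.41% of all tested genes) and 2 that rose (11.8%, beside 2.9%). EPHA3, an ephrin receptor, fell by 1.19, while EFNA5, an ephrin, rose by 1.03 and EPHA7 by 1.29. EPHA7 had an adjusted p of 0.0963 without replicate 2 and 0.0644 without replicate 3. In glycosylation 6 of 41 genes rose (14.6%) and 3 fell (7.32%). UAP1, which makes UDP-GlcNAc, rose by 0.98 with pairs at 0.88, 0.99 and 1.07, and CSGALNACT1, which starts chondroitin chains, gave 1.54, 4.18 and 2.80. Without replicate 2 this list had 3 genes higher and 1 lower, without replicate 3 again 3 and 1, and without replicate 1 13 and 5. Among whole families, 18 of 278 tested solute carriers rose (6.47%) and 14 fell (5.04%), beside 2.9% and 2.41% of all tested genes. Of 446 zinc finger genes 6 rose (1.35%) and 2 fell (0.448%), which is below those shares. Without replicate 2 these counts were 5 and 2 for solute carriers and 1 and 0 for zinc finger genes, and without replicate 3 they were 7 and 10, and 2 and 0. None of 63 ribosomal protein genes was called by limma, with 1 at an unadjusted p below 0.05.

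CTBP1, the corepressor gene whose antisense RNA the study targets elsewhere, was 9.91, 10.26 and 10.69 in vehicle and 9.51, 9.06 and 9.68 in R1881. It fell by 0.87 (SE 0.17, limma adjusted p = 0.035), and its adjusted p was 0.198 without replicate 2 and 0.126 without replicate 3. SFPQ, which encodes PSF, had a mean difference of -0.21 (SE 0.12, limma adjusted p = 0.401). PIAS1, a SUMO ligase that acts on nuclear receptors, rose by 0.71, with an adjusted p of 0.0627 without replicate 2 and 0.0978 without replicate 3.

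The called genes moved alike in arrays that took no part in the fit, of which the VCaP pairs were all at 1 nM R1881. Of the 401 that rose, 369 (92%) were above 0 in all 3 LNCaP knockdown pairs, beside 21.5% of all tested genes, and 330 (82.3%) in all 3 VCaP pairs, beside 29.6%. Of the 333 that fell, 292 (87.7%) were below 0 in all 3 LNCaP knockdown pairs, beside 21.2%, and 221 (66.4%) in all 3 VCaP pairs, beside 28.3%. In VCaP 21 of the genes that rose (5.24%) were below 0 in all pairs, beside 28.3% of all tested genes. Of those that fell, 25 (7.51%) were above 0 in all, beside 29.6%. JAG1 was among these opposite genes, with -0.46, -0.45 and -0.04 in VCaP, as was SLITRK3, with 0.51, 0.80 and 0.36. STEAP4 gave 5.46 to 5.79 in VCaP and SI gave -2.77 to -1.68.

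The 1 nM pair was then compared with the 10 nM pairs. No gene was called for that difference (0 of 13812, 0%), with a smallest adjusted p of 0.471 by limma and 769 genes (5.57%) at an unadjusted p below 0.05. The test had 1 residual degree of freedom before moderation. By size, the 1 nM pair had the largest median. Among the 401 genes that rose, the median difference was 0.84 in replicate 1, 1.14 in replicate 2 and 1.02 in replicate 3, and the 333 that fell decreased by 0.65, 1.00 and 0.79. The 1 nM pair held the largest increase for 204 of the first (50.9%) and the largest decrease for 205 of the second (61.6%). Of all 13812 tested genes, it lay above both 10 nM pairs for 5122 and below both for 4291. The called genes were chosen on these same pairs.

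The spread of differences over all genes moved with the order of the pair medians. Its median absolute deviation was 0.20, 0.34 and 0.26 in replicates 1, 2 and 3, and 308 genes passed 1 upward in the 1 nM pair beside 164 and 274 in the 10 nM pairs. With the 6 arrays normalized together by quantiles, the 1 nM pair still held the largest value for 41.6% of the genes that rose and 46.2% of those that fell. With each pair's differences scaled to the same spread, these shares were 11.7% and 19.5%, and the median of the genes that rose was 0.89 in the 1 nM pair beside 1.07 in replicate 3. The order of the pairs turned with this scaling. In 55 genes chosen because they passed 1 upward in all 3 LNCaP knockdown pairs, which share no array with these, the medians were 1.90, 2.87 and 2.20 in replicates 1, 2 and 3. Over the same genes the knockdown pairs gave 1.77, 1.76 and 1.92. In 13 genes chosen likewise downward the medians were -1.81, -2.37 and -2.21. Genes chosen on the VCaP pairs, all at 1 nM, gave another order. The 137 chosen upward had medians of 0.65, 1.14 and 1.12, with replicates 2 and 3 nearly alike, and the 134 chosen downward had -0.11, -0.14 and -0.93, with replicate 3 farthest down.

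**Figure D3:**
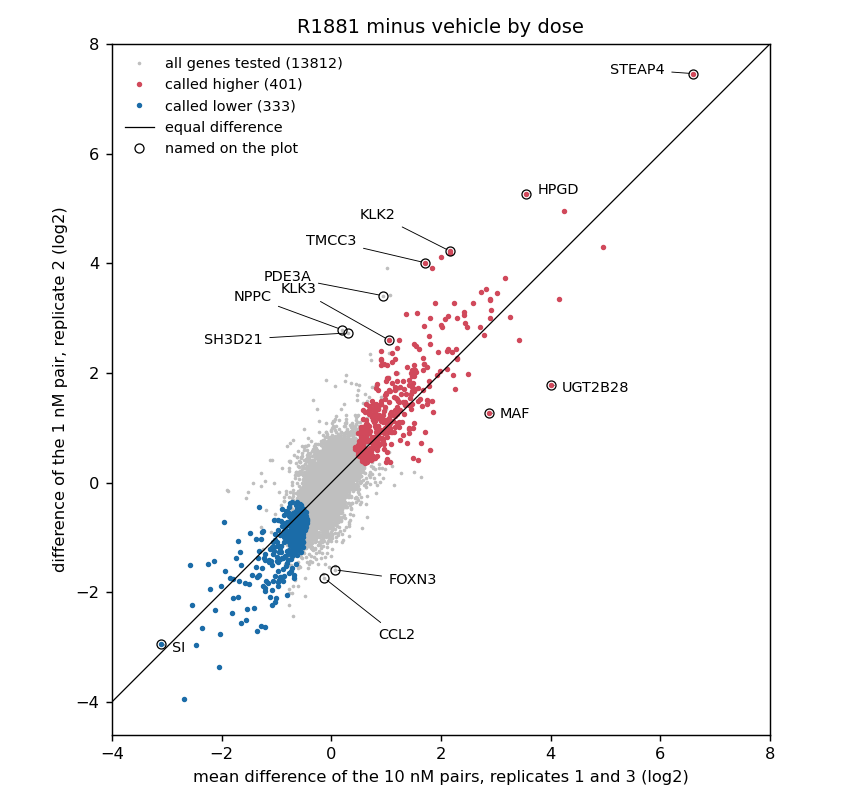
Difference of the 1 nM pair (log2, vertical axis) against the mean difference of the 10 nM pairs (log2, horizontal axis) for 13812 genes, with the line of equal differences. KLK2, TMCC3, PDE3A, NPPC and SH3D21 lie above the line, and MAF and UGT2B28 below it.

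The genes with the largest gap, none of them called for it, were named among those whose 10 nM pairs lay within 0.5 of each other. NPPC, which encodes C-type natriuretic peptide, was 8.18 and 8.30 in vehicle and R1881 of replicate 1, 7.82 and 10.61 in replicate 2, and 8.35 and 8.61 in replicate 3. Its gap of 2.60 between the 1 nM pair and the mean of the 10 nM pairs was the largest upward. PDE3A, a phosphodiesterase, gave 0.75, 3.41 and 1.12 and SH3D21 gave 0.31, 2.73 and 0.31. The knockdown pairs that follow differ in set and siRNA as well as in dose. In the siCTBP1-AS pair of the same set, also at 1 nM, NPPC gave 1.00, beside -0.03 with siCTBP1-AS and 0.59 with siPSF at 10 nM. SH3D21 gave 0.75 there, beside 0.20 and 0.44. PDE3A gave 0.91 at 1 nM, between its 0.33 and 1.07 at 10 nM. TMCC3 rose in all pairs, by 1.54, 4.01 and 1.88, but in the knockdown pairs it gave 1.20 at 1 nM, below its 1.71 and 2.40 at 10 nM. HPGD had a gap of 1.70, which was -0.08 with the pairs scaled to the same spread. Further genes above were FAM30A at 1.84, LBH at 1.70, MDGA1 at 1.69 and CDC6, a replication licensing factor, at 1.61. In the knockdown pairs LBH, MDGA1 and CDC6 were higher at 1 nM than in both pairs at 10 nM, whereas HPGD and FAM30A lay between. FAM30A gave -0.15 at 1 nM, beside -0.29 and -0.04.

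The kallikreins shown above were also largest at 1 nM in the knockdown pairs. KLK2 gave 2.14, 4.22 and 2.20, a gap of 2.05 that was 1.80 after quantile normalization and 0.73 after scaling the pairs. KLK3 gave 1.22, 2.60 and 0.88, a gap of 1.55 that was 1.45 and 0.77 under the same settings. In the siCTBP1-AS pair of that set KLK2 gave 3.58 and KLK3 2.46, beside 1.83 and 1.11 in the siCTBP1-AS pair at 10 nM and 2.13 and 0.99 in the siPSF pair at 10 nM. The knockdown pairs differ in set and siRNA as well, so their dose cannot be told apart from these. In the siControl pairs, KLK2 in replicate 2 was 10.92 in R1881, beside 10.95 and 11.35, but 6.70 in vehicle, beside 8.81 and 9.15. KLK3 was 13.25 in R1881, beside 13.37 and 13.98, and 10.65 in vehicle, beside 12.15 and 13.10. The larger differences thus came with low vehicle signals, not with higher R1881 signals. The arrays of replicate 2 also had lower median signals, which limits this comparison. TRPM8, a cold-sensing channel of prostate cells, gave 1.12, 2.40 and 0.70 and, in the same knockdown pairs, 2.45 at 1 nM and 1.01 and 0.86 at 10 nM.

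Genes on the other side included the transcription factor MAF, which rose by 2.68, 1.27 and 3.07. Its gap was -1.60 and went to -2.37 with scaled pairs, and it gave 0.51 in the 1 nM knockdown pair beside 1.81 and 2.16 in those at 10 nM. FOXN3, a forkhead repressor, had a gap of -1.65 and pairs at -0.05, -1.59 and 0.17. CCL2, a chemokine, had -1.61, with pairs at -0.17, -1.74 and -0.09. ELAPOR1 at -1.52, COBL at -1.50, SLC6A16 at -1.38, MBNL2 at -1.36, MYNN at -1.32, PCDHB8 at -1.31 and CD24 at -1.29 completed the list. In the knockdown pairs FOXN3, ELAPOR1, COBL, MBNL2 and MYNN were lower at 1 nM than in both pairs at 10 nM. CCL2, SLC6A16, PCDHB8 and CD24 lay between, with CCL2 at 0.24 beside -1.28 and 0.40 at 10 nM. UGT2B28, whose 10 nM pairs lay further apart, gave 1.78 at 1 nM beside 3.12 and 4.88, and -0.07 in the 1 nM knockdown pair beside 3.30 and 2.98. Set and siRNA differ between these knockdown pairs too.

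The 10 nM pairs did not always move together. Replicate 1 stood apart for genes of the endoplasmic reticulum, which folds and exports secreted proteins. Of 45 tested genes of transport from the endoplasmic reticulum to the Golgi, 36 were below 0 in replicate 1, 2 in replicate 2 and 1 in replicate 3. Of all tested genes 53.1%, 48.6% and 56.6% were below 0 in these replicates. In replicate 1 alone, 34 transport genes (75.6%) were below 0 and above 0 in the others, beside 11.9% of all tested genes. The medians of the transport genes were -0.19, 0.50 and 0.55. Of 25 chaperones and genes of the unfolded protein response, 25 were below 0 in replicate 1, 9 in replicate 2 and 4 in replicate 3. Their medians were -0.71, 0.33 and 0.38. Replicate 1 was also lowest for 20 genes of amino acid transport and tRNA synthetases, by medians of -0.78, -0.35 and 0.26. Of these, 18, 15 and 4 were below 0 in replicates 1, 2 and 3. SEC24D, a cargo adaptor of COPII vesicles, went from 10.23 to 9.61 in replicate 1, from 8.41 to 9.90 in replicate 2 and from 8.64 to 10.56 in replicate 3. DNAJB9, a chaperone of the lumen, gave -0.63, 1.74 and 2.11, and HSPA5, the main chaperone BiP, gave -0.66, 0.41 and 0.46. In the first list only CREB3L4, a membrane-bound factor that activates secretory genes, was called, with pairs at 0.87, 1.56 and 1.43, and its adjusted p was 0.0596 without replicate 2. In the second SESN2, a stress-induced sestrin, fell by 0.89 and had an adjusted p of 0.218 without replicate 2.

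Leaving out replicates 1, 2 and 3 in turn, limma called 21, 0 and 1 of the 45 transport genes higher and 0 lower each time. Of the 25 chaperone genes it called 9, 0 and 0 higher and 1, 0 and 4 lower, beside 4.58% of all tested genes in each direction without replicate 1. The 4 that fell without replicate 3 were the stress-response genes DDIT3, ASNS, CHAC1 and SESN2, and CHAC1 gave -1.25, -1.77 and -0.07. The counts without replicate 1 restate that this pair ran the other way and are no separate support. In the other arrays 42, 40 and 43 of the 45 transport genes were above 0 in the LNCaP knockdown pairs of sets 1, 2 and 3, and 44 were in VCaP with siControl. Of all tested genes 52.4%, 51% and 45.1% were above 0 in those knockdown pairs and 50.2% in that VCaP pair. Within set 1 the chaperone genes had a median of 0.79 above the set's mean in the siControl vehicle array, 0.01 in the siControl R1881 array and -0.41 and -0.30 in the siCTBP1-AS arrays. The vehicle array of replicate 1 was thus the high array of its set for these genes, and its part in the result was not tested.

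**Figure D4:**
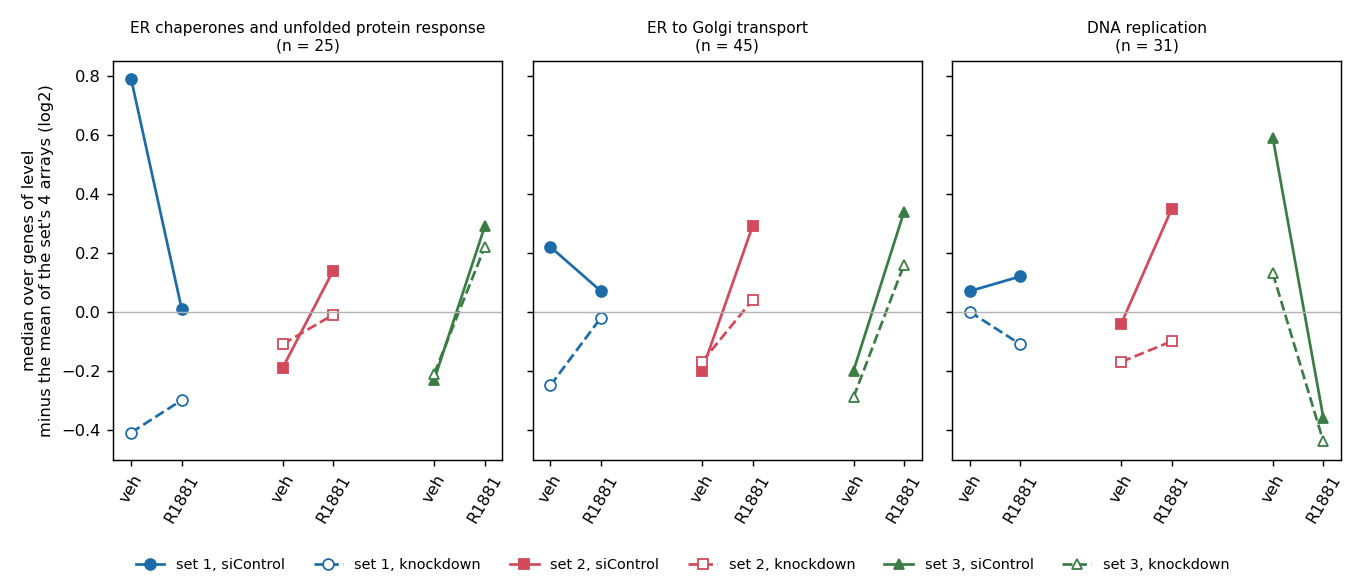
Median over the genes of a list of the level minus the mean of the 4 arrays of a set (log2, vertical axis), in vehicle and R1881 of each set, with filled points for siControl and open points for the knockdown. The siControl vehicle array of set 1 is high for chaperones (0.79), and the siControl vehicle array of set 3 is high for DNA replication (0.59).

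Interferon-response genes were lowest in replicate 1 as well. Their medians were -1.57, -0.36 and -0.17, and 3 of 27 fell by the test (11.1%, beside 2.41% of all tested genes). Without replicates 1, 2 and 3 in turn, 4, 0 and 6 were called lower and 1, 0 and 0 higher. IFI44L was 9.90 in vehicle and 6.52 in R1881 of replicate 1, 3.75 and 3.61 in replicate 2, and 5.14 and 4.72 in replicate 3, and was not called (mean difference -1.31, limma adjusted p = 0.275). IFIT2 fell by 0.99, IFIT5 by 1.14 and RIGI, a sensor of viral RNA, by 1.26, with adjusted p of 0.0778, 0.136 and 0.185 without replicate 2. In VCaP 19 of the 27 genes were above 0 with siControl, beside 50.2% of all tested genes. Within set 1 the siControl arrays had medians of -0.58 and -2.21 beside the set's mean, and the siCTBP1-AS arrays 1.46 and 1.44, and the part of this in the result was not tested.

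Replicate 3 stood apart for the cell cycle. Of all tested genes 53.1%, 48.6% and 56.6% were below 0 in replicates 1, 2 and 3. Of 31 DNA replication genes, 31 were below 0 in replicate 3, 11 in replicate 1 and 2 in replicate 2. Their medians were 0.10, 0.34 and -1.05 in replicates 1, 2 and 3. Of 29 mitosis genes 29 were below 0 in replicate 3, with medians of 0.14, 0.08 and -0.65. None of these 60 genes was called by limma, nor was any at an unadjusted p below 0.05. PCNA, the sliding clamp of DNA polymerase, was 8.68 and 8.78 in replicate 1, 8.40 and 8.40 in replicate 2, and 10.34 and 9.29 in replicate 3. MCM2, a helicase subunit, gave a difference of -1.07 in replicate 3 and the replication factor MCM10 -1.55. In the siPSF pair of set 3 1 of the 31 replication genes was above 0 and the median was -0.56, and in VCaP with siControl 0 were and the median was -1.57. Of all tested genes 45.1% and 50.2% were above 0 in these pairs. In the siCTBP1-AS pairs of sets 1 and 2 the medians were -0.14 and 0.04.

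**Figure D5:**
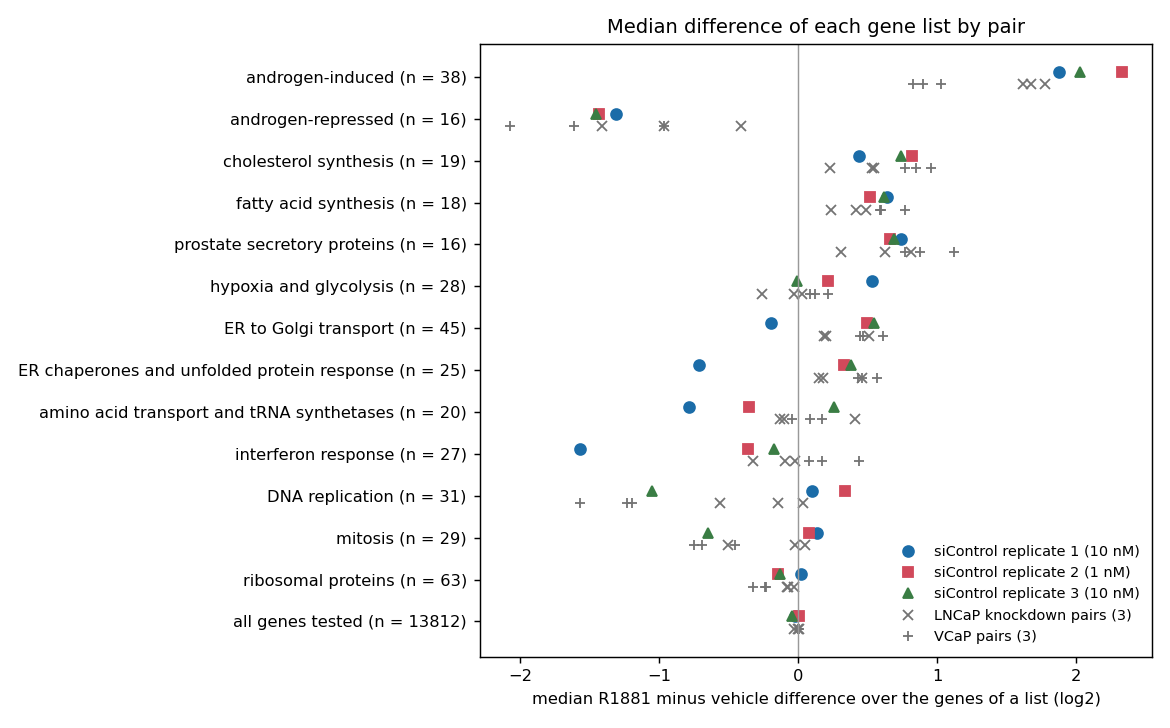
Median R1881 minus vehicle difference over the genes of each list (log2, horizontal axis), with coloured points for the 3 siControl pairs, crosses for the LNCaP knockdown pairs and plus signs for the VCaP pairs. Androgen-induced genes are near 2 in all 3 siControl pairs, whereas replicate 1 lies apart for chaperones (-0.71) and interferon genes (-1.57) and replicate 3 for DNA replication (-1.05).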

How the data were processed

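The authors deposited log2 signals per transcript cluster of a gene-level array (HuGene 1.0 ST), for which the submitters' processing notes list RMA and, as software, Affymetrix Expression Console (version 1.1.1). The deposited log2 values differ in median and spread between sets, so pairs were compared within a set. Of 33297 clusters, 19460 had 1 symbol, 1754 several and 12083 were not listed in the annotation. The cluster with the highest mean stood for each of 18417 genes, 769 of which had more than 1.

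Tests used limma 3.58.1 in R 4.3.3 with the replicate number as a block, checked on simulated data. Same-numbered arrays belong to 1 set by their array names, and after removing group means they correlated at 0.78, 0.84 and 0.70. Arrays of different number gave -0.64 to -0.08, but removing the means forces negative values there, so these are no separate evidence. The values can show a shared set, not a shared culture. The dose test was the product of R1881 and the 1 nM pair.

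Named genes were the 15 largest called mean changes and 5 largest t in each direction, up to 6 called members of each list, fixed genes, the 10 largest dose gaps and the 5 largest uncalled changes in each direction. Members of lists beyond these were chosen after their values were seen. Members and lists were chosen with earlier results of these data known. FKBP5 and TMPRSS2 lie on clusters with several symbols and were not used here. Promoters came from RefSeq. Alternatives are given in the closing section. The number of arrays limits the precision.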

Additional observations from a re-analysis of the deposited data

Results flagged for a closer look

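Groups of 3 arrays were too small for a check on single outlying arrays. Some named genes moved in opposite directions in 2 groups of pairs, and the differences between groups were not tested. The groups differ in cell line. All VCaP pairs were at 1 nM R1881, as was LNCaP replicate 2, while LNCaP replicates 1 and 3 were at 10 nM. In these genes all 3 LNCaP siControl pairs moved against all 3 VCaP pairs, with mean differences in LNCaP of -2.22 for SLITRK3, -1.49 for ACP3, 0.68 for THBS1, 1.64 for JAG1, 0.88 for FOSL2 and 1.03 for EFNA5. The same held for IFIT2 at -0.99, RIGI at -1.26, PER2 at -0.72, ZNF385B at 1.33 and, without a call, RPS27L at -0.33, PTGER4 at 1.85, IFIT1 at -1.30 and IFI44 at -1.23. In VCaP with siControl, siCTBP1-AS and siPSF, ZNF385B gave -1.45, -0.71 and -0.38, and IFIT2 gave 0.04, 0.13 and 1.69. Several lay near 0 there, with ACP3 at 0.03 to 0.15, PER2 at 0.03 to 0.25 and RPS27L at 0.04 to 0.22.

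The 1 nM pair moved against both 10 nM pairs in CD14, with a gap of 0.69, FAM30A at 1.84, CDC6 at 1.61, SLC6A16 at -1.38, PCDHB8 at -1.31 and CD24 at -1.29. Dose, set and siRNA mark cannot be told apart in these.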

How the results depend on the processing

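The replicate block moved the counts most. With no replicate block limma called 31 genes higher and 4 lower, beside 401 and 333 with it. Leaving out replicates 1, 2 and 3 in turn gave 143 to 633 genes called higher and 56 to 633 called lower, highest without replicate 1 and lowest without replicate 2. The fit of all 12 LNCaP arrays called 307 higher and 211 lower. The remaining settings (quantile normalization together, other filters, mean of clusters, trend with robust) gave 403 to 440 higher and 307 to 355 lower. Over 2 pairs, 3261 to 4158 genes were higher and 4389 to 4884 lower in both, and 128 to 198 and 46 to 104 passed 1. The dose test called 0 genes under each setting, with 228 to 1065 at an unadjusted p below 0.05.

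Of the 142 named genes called, 79 were called in each of the fits without 1 replicate, 28 were without the block, and 0 reversed in any setting. The fits without 1 replicate have 1 residual degree of freedom, and the dose gaps without replicate 1 or 3 are values with no test.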
